A study of Mus musculus with 12 samples.

Results

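The nuclear genes of oxidative phosphorylation were followed across the cell types of the superior mesenteric ganglion (SMG) of 12 mice. They were chosen by symbol: names starting with Ndufa, Ndufb, Ndufc, Ndufs or Ndufv (complex I and its Ndufaf assembly factors), Sdha to Sdhd (complex II), names starting with Uqcr (complex III), Cox4 to Cox8 (complex IV) and Atp5 (complex V), without pseudogene and opposite-strand entries. This gave 93 of the 32289 features counted: 7 core subunits, 31 accessory subunits and 8 assembly factors of complex I, and 4, 8, 18 and 17 genes of complexes II, III, IV and V. Ndufa4 was grouped with complex I by its symbol, although its protein is known as a subunit of complex IV. No measured value entered the choice.

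Single-cell RNA sequencing had been performed on the SMG of 3-week-old animals, 1 wild type (WT) and 10 Th-MYCN+/- (called #1 to #10 below), and of 1 Th-MYCN+/- animal aged 6 weeks, which had been picked because a tumor was visible. All mice were of the 129+Ter/SvJcl background. The hemizygous Th-MYCN+/- mice carry the human MYCN gene under the rat tyrosine hydroxylase promoter, which is active in sympathetic cells, and tumors of this line start in the SMG. Each library came from 1 mouse, so that WT and 6-week-old values have no replicate.

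Oxidative phosphorylation takes place at the inner mitochondrial membrane. Complexes I and II pass electrons from NADH and succinate to ubiquinone, complex III passes them to cytochrome c and complex IV to oxygen. Complexes I, III and IV pump protons, and complex V (ATP synthase) uses the gradient to make ATP. Apart from complex II, each complex joins nuclear-encoded subunits to subunits encoded by mitochondrial DNA, and some subunits exist as isoforms from several nuclear genes that differ by tissue. MYC family proteins are known to raise genes of mitochondrial biogenesis.

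The ATP synthase c subunit, whose ring turns with the flow of protons, is such a case. Its mature protein is encoded by Atp5g1 (chr11:96068852-96075670), Atp5g2 (chr15:102662864-102672352) and Atp5g3 (chr2:73908447-73911326), all on the minus strand of GRCm38. The shares of the 3 genes differed between neuroblast-like and ganglion-like cells. The last 76 codons of each, stop codon included, are shown 5′ to 3′ because they carry the same protein stretch. Capitals mark the 58 positions at which the genes are not all alike, and 170 bases are the same in all 3.
Atp5g1: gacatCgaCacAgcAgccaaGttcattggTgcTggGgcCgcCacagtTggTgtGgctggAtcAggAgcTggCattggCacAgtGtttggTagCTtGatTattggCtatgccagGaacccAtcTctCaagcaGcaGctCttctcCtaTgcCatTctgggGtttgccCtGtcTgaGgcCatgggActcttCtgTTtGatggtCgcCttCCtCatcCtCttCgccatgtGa
Atp5g2: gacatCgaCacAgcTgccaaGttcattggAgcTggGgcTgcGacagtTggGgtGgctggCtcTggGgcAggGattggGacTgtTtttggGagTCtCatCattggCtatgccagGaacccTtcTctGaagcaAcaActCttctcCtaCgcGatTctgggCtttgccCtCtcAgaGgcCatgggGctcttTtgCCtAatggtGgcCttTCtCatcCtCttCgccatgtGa
Atp5g3: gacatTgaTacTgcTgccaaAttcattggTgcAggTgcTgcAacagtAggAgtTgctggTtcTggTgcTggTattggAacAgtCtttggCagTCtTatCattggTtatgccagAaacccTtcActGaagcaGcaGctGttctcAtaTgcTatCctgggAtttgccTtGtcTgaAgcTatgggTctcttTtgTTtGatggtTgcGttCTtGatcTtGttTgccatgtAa
Of these codons, 53 differed between the genes and 0 of those differed in meaning. Atp5g1 and Atp5g2 shared 85.1% of these bases, Atp5g1 and Atp5g3 79.8%, and Atp5g2 and Atp5g3 78.5%. The 3 UMI counts therefore belong to separate transcripts of a single mature protein. Many genes of oxidative phosphorylation have processed pseudogene copies elsewhere in the genome, so that single counts can be too low where reads matched more than 1 place.

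The libraries held 1147772 UMIs (WT), 1444554 to 6388766 UMIs (3-week-old Th-MYCN+/-) and 4824039 UMIs (6-week-old). After filtering, 12055 cells remained. They were clustered without the members and without mitochondrial genes, and clusters were named from fixed markers: 2941 cells were neuroblast-like, 2925 Schwann-like and 2750 ganglion-like, and the sparser classes were 517 endothelial-like, 167 myofibroblast-like, 141 fibroblast-like, 243 macrophage-like and 44 NKT-like cells. A further 2327 cells of low depth (median 503 UMIs) stayed unnamed. The macrophage-like cluster also passed for all 5 B-cell markers. The human MYCN transcript was at 79.7 to 593 CPM in the neuroblast-like cells of the 10 mice and at 354 CPM in the 6-week-old mouse, whereas the 22 cells so named in the WT mouse held 0 UMIs of it. Depth differed between the classes, with a median of 4411 UMIs in neuroblast-like, 1144 in ganglion-like, 971 in Schwann-like and 762 in myofibroblast-like cells of the 10 mice. Mouse #2 stood apart. It gave 1527 of the ganglion-like cells, 37 neuroblast-like, 13 Schwann-like and no myofibroblast-like cells, only 38.9% of its UMIs were in cells, and 87.8% of the largest ganglion-like cluster was its own. The sums over all members, the ratios and the counts of calls are also given without it, and the sums by complex are not. Pairs of libraries shared at most 6 cell barcodes, and 95 in all against 89.2 if barcodes were drawn at random.

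The 93 nuclear genes together made up 3.40% ± 0.68 of the UMIs of neuroblast-like cells (SD, n = 10 mice). As summed CPM (UMIs scaled to a common library total), the level was 33960 ± 6795 in neuroblast-like cells, with a lowest, median and highest mouse of 24900, 33510 and 46370. It was 34950 ± 7949 in ganglion-like cells (24760, 33930 and 53860) and 24210 ± 6291 in Schwann-like cells (15560, 23540 and 34180). The ranges of all 3 classes overlapped, and #2 was highest in each of the 3, with 13 cells in the Schwann-like class. Without it the means were 32580, 32850 and 23100 CPM. Compared within mice, on the log2 scale, neuroblast-like cells were level with ganglion-like cells (difference -0.04 ± 0.13 SD, higher in 3 of 10 mice). Against Schwann-like cells they were higher by 0.51 ± 0.20 in 9 of 10 mice, and ganglion-like cells were higher than Schwann-like cells by 0.54 ± 0.19 in 10 of 10. The order of the 3 classes thus left the first 2 undistinguished.

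Among the sparser classes, myofibroblast-like cells had the highest summed level, 40060 ± 11550 CPM (n = 9, 31390 to 67540). The mouse at 67540 was #1, with 5 such cells. Endothelial-like cells were at 25160 ± 6271 (n = 10), macrophage-like cells at 23460 ± 8695 (n = 10) and fibroblast-like cells at 21730 ± 8310 (n = 9), levels that overlapped with each other and with Schwann-like cells. Within mice, myofibroblast-like cells exceeded endothelial-like cells by 0.73 ± 0.29 on the log2 scale in 9 of 9 mice. Both the sum and this excess include Ndufa4l2 and Cox4i2, which the study lists among its myofibroblast markers. Their means were 3697 and 1886 CPM in myofibroblast-like and 42.4 and 20.6 CPM in endothelial-like cells. The sum without them was not taken. The cells without a name were at 36260 ± 6933 CPM.

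RNA outside cells held these genes at a high level too. In droplets of at most 100 UMIs the members summed to 27440 to 50100 CPM over the 10 mice (median 43620), above most class sums, with #8 lowest there and in neuroblast-like cells. Such free RNA enters every droplet and weighs more in shallow cells, and its part in the differences between classes was not tested.

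Divided by complex, neuroblast-like and ganglion-like cells differed in their make-up. Complex V was at 11060 ± 1410 CPM in neuroblast-like cells (8987 to 13240) and at 9456 ± 1824 in ganglion-like cells (7567 to 13760), with neuroblast-like cells higher in 9 of 10 mice (0.24 ± 0.17 on the log2 scale). Complex I went the other way, at 11520 ± 2868 against 12960 ± 3177 CPM and lower in 9 of 10 mice (-0.17 ± 0.12), and so did complex IV, at 7359 ± 2171 against 8448 ± 2396 CPM and lower in 8 of 10 (-0.21 ± 0.20). Complex II, the only complex with no mitochondrially encoded part, was at 1112 ± 98.8 against 994.8 ± 197.1 CPM and higher in 7 of 10 mice (0.18 ± 0.33). Complex III was at 2915 ± 533 against 3085 ± 712 CPM and lower in 8 of 10, as complex IV was, but by less (-0.07 ± 0.20). In Schwann-like cells all complexes were lower, with complex V at 6442 ± 1342, complex I at 9180 ± 2826, complex IV at 5727 ± 1808, complex III at 2222 ± 518 and complex II at 641.5 ± 133.5 CPM. Neuroblast-like cells exceeded them most in complex II (0.82 ± 0.30) and complex V (0.80 ± 0.20), both in 10 of 10 mice.

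**Figure D1:**
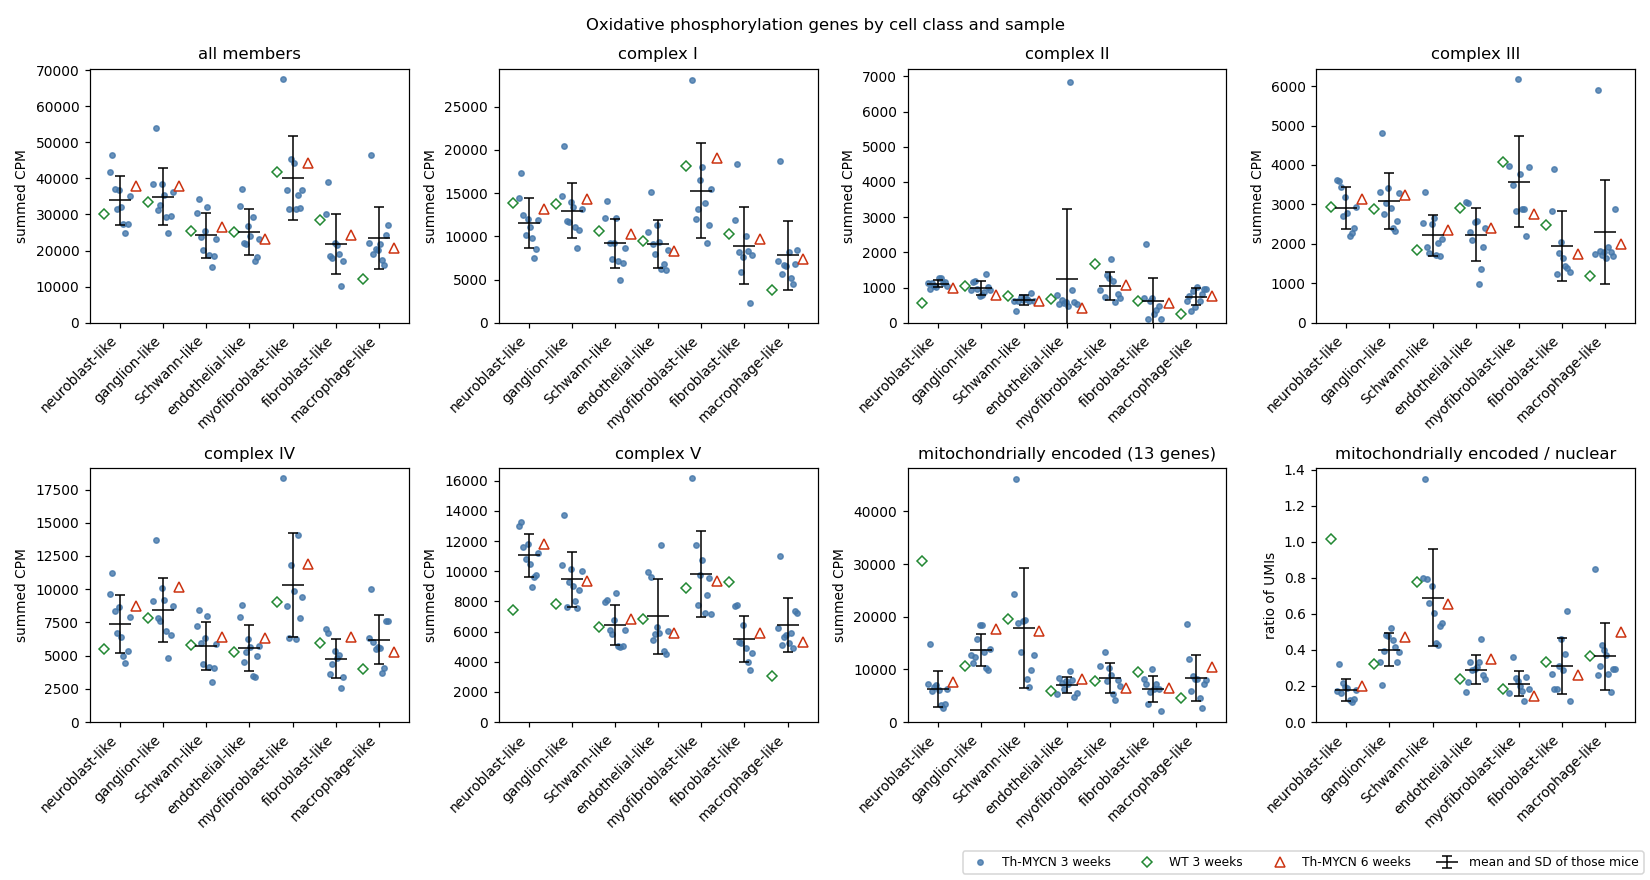
Summed CPM of all members, of each complex and of the 13 mitochondrially encoded subunits, and the ratio of mitochondrially encoded to nuclear UMIs, by cell class. Each filled point is a 3-week-old Th-MYCN+/- mouse with mean and SD in black, open diamonds are the WT mouse and open triangles the 6-week-old mouse; nuclear sums of neuroblast-like (33960 CPM) and ganglion-like cells (34950 CPM) lie above Schwann-like cells (24210 CPM), while the ratio rises from 0.178 through 0.401 to 0.690.

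The 13 subunits encoded by mitochondrial DNA did not follow the nuclear genes. Their sum was 6351 ± 3419 CPM in neuroblast-like cells (2735, 6140 and 14870 as lowest, median and highest), 13640 ± 3052 in ganglion-like and 17850 ± 11420 in Schwann-like cells (6615, 16100 and 46070). The value of 46070 came from the 13 Schwann-like cells of #2. Within mice the last 2 classes had no order: ganglion-like cells were higher in 5 and lower in 5 of 10 mice (-0.20 ± 0.82 on the log2 scale). Expressed per nuclear UMI, the ratio was 0.178 ± 0.061 in neuroblast-like cells (0.110 to 0.321), 0.401 ± 0.093 in ganglion-like cells (0.207 to 0.524) and 0.690 ± 0.268 in Schwann-like cells (0.425 to 1.35). Only #2 reversed the order of the first 2 classes, with 0.321 in its 37 neuroblast-like and 0.207 in its ganglion-like cells. Without it the mean ratios were 0.162, 0.423 and 0.617. Myofibroblast-like cells were at 0.213 ± 0.070, endothelial-like cells at 0.290 ± 0.080, fibroblast-like cells at 0.312 ± 0.154 and macrophage-like cells at 0.364 ± 0.186. Cells with more than 10% mitochondrial UMIs were left out, which caps the ratio. Free RNA held the mitochondrially encoded subunits at 13820 to 46270 CPM (median 17720), and its part in the ratio was not tested.

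Single genes were then tested between classes with edgeR on the UMIs summed per mouse and class, with the mouse as a block and Benjamini-Hochberg adjustment over all genes that passed the filter on low counts. The comparisons share their samples, so that their values stand side by side and are not independent. For neuroblast-like against ganglion-like cells, 85 of the 93 members passed the filter. Of these, 13 were higher and 21 lower in neuroblast-like cells, against 33.2% and 33.1% of all 7186 genes tested (15.3% and 24.7% of the members). Their median log2 fold change was -0.09, beside 0.02 for all genes. The count of lower members was 13 without #4, and without #2 it was 17 higher and 17 lower. All genes gave 2023 lower of 6938 without #4, and 2706 higher and 2313 lower of 7398 without #2. The 8 members that did not pass were the minor isoforms Cox4i2, Cox6a2, Cox6b2, Cox7a1, Cox7b2, Cox8b, Cox8c and Ndufa4l2. Members named below beyond those a rule had fixed were named after their values were seen, and their calls were not followed with single mice left out.

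By count complex V held the most members that were higher, 6 of 17, with 4 lower. Its shares, 35.3% and 23.5%, stood beside 33.2% and 33.1% of all genes tested. Atp5g2 led, at 510, 670 and 917 CPM (lowest, median and highest mouse) in neuroblast-like and 206, 281 and 472 CPM in ganglion-like cells. The ranges did not overlap, and the log2 fold change was 1.16 ± 0.14 (SE, edgeR adjusted p = 4.2e-07, higher in 10 of 10 mice). Atp5b, the catalytic β subunit and the most abundant complex V member, stood at 1156, 1762 and 2542 against 133, 991 and 1498 CPM, a change of 1.00 ± 0.25 (edgeR adjusted p = 0.0013). The lowest ganglion-like mouse was far below the rest, and the ranges overlapped in part. Atp5a1, the α subunit that alternates with β in the head of the enzyme, changed by 0.77 ± 0.18 in 9 of 10 mice and Atp5e, the ε subunit of the central stalk, by 0.52 ± 0.15 in 10 of 10. Atp5c1 and Atp5f1 were the other two that rose, whereas Atp5g1, Atp5k, Atp5l and Atp5mpl fell. Of these Atp5g1 (-0.35 ± 0.13) was no longer called without #4, #7, #8, #9 or #10.

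In complex I the core subunits, which carry the flavin and the iron-sulfur clusters, gave 2 higher and 1 lower of 7. As shares that is 28.6% and 14.3%, beside 33.2% and 33.1% of all genes tested. Ndufs1, the largest iron-sulfur subunit, was at 83.9 ± 26.3 against 46.4 ± 20.1 CPM (0.90 ± 0.21). Ndufv1, the flavin-bearing subunit, did not pass, with 0.04 ± 0.24, and Ndufs7 fell by 0.34 ± 0.15 on the log2 scale but was lost without any of #2, #4, #6, #8, #9 or #10.

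The accessory subunits, which surround that core and do not carry electrons, gave 1 higher and 10 lower of 30 tested. Their shares were 3.33% and 33.3%, beside 33.2% and 33.1% of all genes tested. Ndufa11, a membrane-arm subunit, was at 157, 306 and 518 CPM in neuroblast-like and 357, 615 and 934 CPM in ganglion-like cells. It was lower in 10 of 10 mice, although the ranges overlapped, with a log2 fold change of -1.19 ± 0.13 (edgeR adjusted p = 6.8e-08). Ndufb3 was at 142 ± 74.7 against 318 ± 186 CPM, a change of -1.18 ± 0.27, likewise in 10 of 10. Single ganglion-like cells of #7 and #9 held 131 and 60 UMIs of Ndufb3, and single neuroblast-like cells of #6 and #8 held 74 and 23. The others that fell were Ndufb4, Ndufa4, Ndufa13, Ndufv3, Ndufs5, Ndufb2, Ndufa6 and Ndufb6, from -0.99 to -0.36, and Ndufa9 was the 1 that rose. Among the 8 assembly factors, which build complex I and are not part of it, Ndufaf8 had the largest fall of all members, at 30.3 ± 18.7 against 74.7 ± 27.0 CPM (-1.42 ± 0.19, edgeR adjusted p = 7.9e-07, lower in 10 of 10). Ndufaf3 fell as well, by 0.71 ± 0.17 on the log2 scale.

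Complex II rose in Sdha, the flavoprotein that oxidizes succinate (0.51 ± 0.19), and in Sdhd, a membrane anchor (0.47 ± 0.14, 10 of 10 mice). The call of Sdha was lost without #5. Sdhb, the iron-sulfur subunit, was at 504 ± 93.6 against 537 ± 107 CPM and did not pass, nor did Sdhc, the other anchor (0.56 ± 0.28), which passed when #8 was left out (0.91 ± 0.20). In complex III, Uqcrc2 and Uqcrfs1 rose and Uqcrq and Uqcr10 fell. Uqcrfs1, the Rieske iron-sulfur protein, was at 548 ± 50.4 against 438 ± 84.4 CPM (0.32 ± 0.14), a call lost without #1, #5, #6 or #9. Uqcrc1, a core protein, was at 486 ± 75.7 against 431 ± 165 CPM and did not pass. In complex IV 2 of 11 tested were called, both lower (18.2%, beside 33.1% of all genes): Cox7c (-0.78 ± 0.14) and Cox7a2l (-0.42 ± 0.13). Cox4i1, its most abundant member, was level at 1790 ± 293 against 1820 ± 314 CPM.

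**Figure D2:**
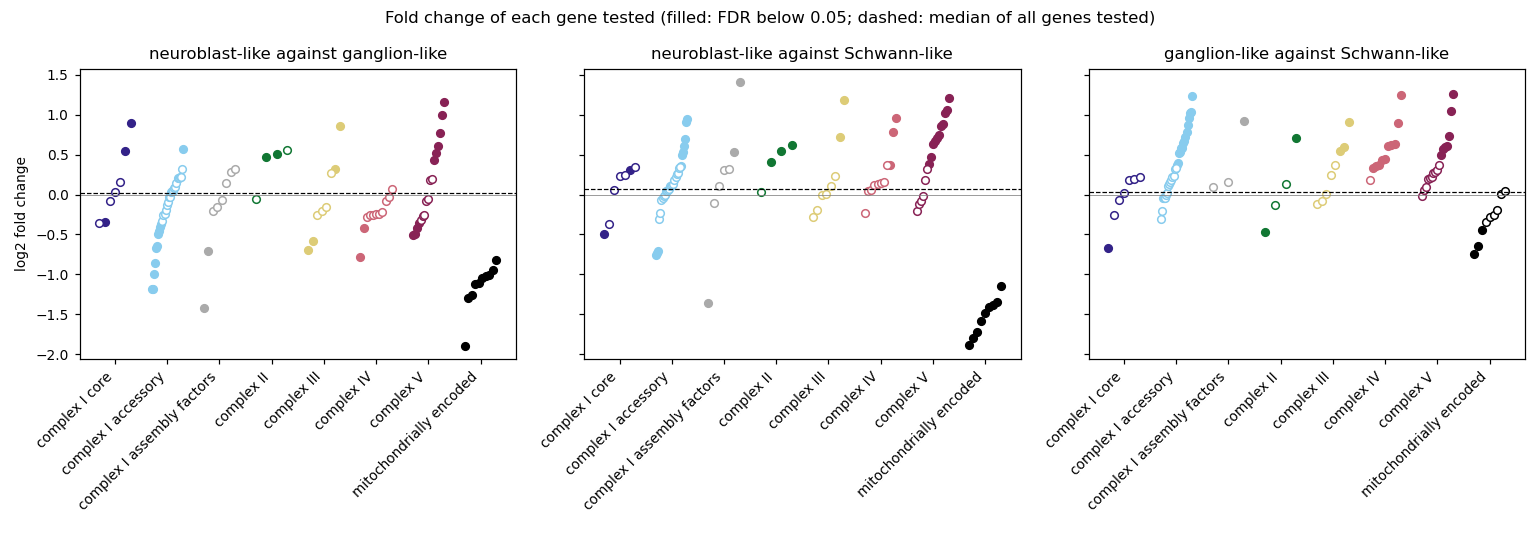
Log2 fold change of each member tested, grouped by complex, and of the mitochondrially encoded subunits, for 3 comparisons of cell classes over 10 mice. Filled points have an edgeR FDR below 0.05 and the dashed line is the median of all genes tested; 10 of 10 mitochondrially encoded subunits are lower in neuroblast-like than in ganglion-like cells, while nuclear members lie on both sides of the line.

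The members that rose were longer than those that fell. In this comparison, which was made after the calls were known, the median coding length was 1131 bases for the 13 members that were higher (156 to 2181) and 318 bases for the 21 that were lower (174 to 1404), with 453 bases for the 51 that were not called. Over all genes tested the corresponding medians were 1245, 1089 and 1197 bases. The exceptions among the members included Atp5e, the shortest that rose at 156 bases. In free RNA the 21 members that fell were more abundant than in neuroblast-like cells (median log2 ratio 0.66) and near the level in ganglion-like cells (0.13), whereas the 13 that rose were lower in free RNA than in neuroblast-like cells (-0.33) and above ganglion-like cells (0.28). Over all genes tested, those that fell had median log2 ratios of 0.47 (neuroblast-like) and -0.81 (ganglion-like). Those that rose had -0.61 and 0.64. The ratio and the call share the level in the class, so that the pattern is not particular to the members and is no separate evidence. The part of free RNA, of depth and of length in these calls was not tested. When cells under 1000 UMIs were left out, the counts were 14 higher, with a median of 1012.5 bases, and 20 lower, with 316.5 bases.

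**Figure D3:**
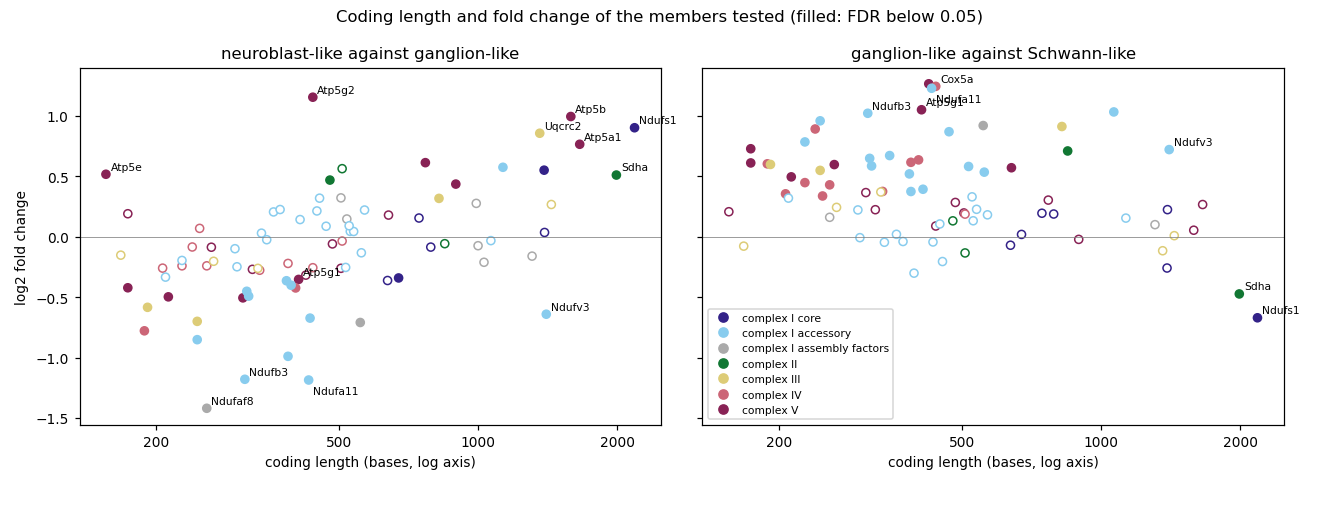
Log2 fold change against coding length, on a log axis, for the members tested between neuroblast-like and ganglion-like cells (left) and between ganglion-like and Schwann-like cells (right); filled points have an edgeR FDR below 0.05 and colours give the complex. On the left the members that were higher have a median length of 1131 bases and those that were lower 318 bases; on the right the median is 348 bases for the higher ones.

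All 10 mitochondrially encoded subunits tested were lower in neuroblast-like than in ganglion-like cells, from -1.90 for mt-Nd1, a membrane subunit of complex I, to -0.82 for mt-Co3 of complex IV. Of all genes tested 33.1% were lower there. Against Schwann-like cells 9 of 9 were lower, beside 32.2% of all genes. Between ganglion-like and Schwann-like cells 3 of 9 were called, all lower in ganglion-like cells (mt-Co2, mt-Nd4 and mt-Cytb). That share, 33.3%, was the same as that of all genes.

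Between neuroblast-like and Schwann-like cells 84 members were tested, and 29 were higher and 5 lower, against 35.9% and 32.2% of 5576 genes. These were 34.5% and 5.95% of the members. The scaling mattered here. With TMM the median log2 fold change was 0.20 for members and 0.07 for all genes, and with library size alone it was 0.44 and 0.35. The split of all genes moved from 2001 higher and 1797 lower to 2563 and 1451, and that of the members to 51 and 4. Relative to all genes the members lay higher under both. Without #2 the counts were 32 higher and 6 lower of 85, beside 2292 and 2044 of 6176 genes.

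By count complex V again held the most that were higher, 11 of 17 (64.7%, beside 35.9% of all genes), and these were all its calls. Atp5g2 was at 262 ± 72.1 CPM in Schwann-like cells (1.22 ± 0.13), Atp5b at 700.3 ± 200.5 (1.06 ± 0.16) and Atp5a1 at 391 ± 52.7 (1.02 ± 0.13), each in 10 of 10 mice. Atp5g1 and Atp5g3 were called too, unlike in the comparison with ganglion-like cells where neither rose. Uqcrfs1 stood out in complex III, with 459, 548 and 637 CPM (lowest, median and highest) in neuroblast-like cells and 0, 194 and 305 CPM in Schwann-like cells. These ranges did not overlap, and the change was 1.18 ± 0.16 (edgeR adjusted p = 2.0e-06). In complex II, Sdhb (0.62 ± 0.16), Sdhd (0.54 ± 0.17) and Sdhc (0.41 ± 0.17) rose in 10 of 10 mice, and Sdha did not pass (0.04 ± 0.15). The call of Sdhc was lost without any of #1, #4, #5, #8, #9 or #10. Cox5a, a subunit of complex IV on its matrix side, was at 443 ± 88.3 against 209 ± 76.0 CPM (0.96 ± 0.15).

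The largest change among the members tested was in Ndufaf6, an assembly factor of complex I, at 36.3 ± 5.2 against 10.2 ± 6.0 CPM (1.41 ± 0.26, 10 of 10 mice). It reached the level that the filter on low counts asks for, 20.4 CPM, in 10 of 10 neuroblast-like but 1 of 10 Schwann-like sums, so that it was tested through the class where it is high and its value is a description. The 5 members that were lower were all of complex I: Ndufaf8 (-1.36 ± 0.23), Ndufa13 (-0.76 ± 0.15), Ndufa6, Ndufb4 and Ndufs8. Ndufa13, an accessory subunit also known as GRIM-19, was at 352 ± 145 CPM in neuroblast-like and 529 ± 255 in Schwann-like cells and was lower in 10 of 10 mice.

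Between ganglion-like and Schwann-like cells 80 members were tested, with 37 higher and 2 lower against 35.2% and 33.3% of 3224 genes. These were 46.3% and 2.50% of the members. Without TMM the counts were 54 and 1, with the split of all genes at 1398 and 913 in place of 1136 and 1073. Without #2 the members gave 43 and 1, beside 1328 and 1111 of 3413 genes. Complex IV was higher in 10 of 11 members tested (90.9%, beside 35.2% of all genes), with Cox4i1 the exception (0.19 ± 0.16). Cox5a led with 278, 533 and 999 CPM in ganglion-like cells against 119, 185 and 330 CPM in Schwann-like cells. The ranges overlapped at their ends, with a change of 1.25 ± 0.15 (edgeR adjusted p = 1.4e-07) in 10 of 10 mice. Cox6a1, Cox6b1, Cox7a2 and Cox8a passed with 0.34 to 0.43 on the log2 scale, and each of these 4 was lost when #4 or #9 was left out, all but Cox6b1 also without #5 or #10, and Cox6a1 and Cox7a2 also without #1.

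Of the accessory subunits of complex I 15 of 30 were called, all higher. Ndufa11 was at 666 ± 207 against 299 ± 210 CPM (1.23 ± 0.14, 10 of 10 mice) and Ndufa10, an accessory subunit of the matrix arm, changed by 1.03 ± 0.20. Complex V gave 7 of 17 (41.2%, near the 35.2% of all genes), led by Atp5g3 (1.27 ± 0.19, 9 of 10 mice) and Atp5g1 (987 ± 245 against 461 ± 218 CPM, 1.05 ± 0.16). Atp5b (0.05 ± 0.25) and Atp5a1 (0.27 ± 0.16) did not pass. The 2 that fell, Ndufs1 (-0.67 ± 0.21) and Sdha (-0.47 ± 0.18), were also the members with a coding length near 2000 bases or above (2181 and 1992). They were not stable: Ndufs1, which reached the level of the filter (46.3 CPM) in 4 of 10 ganglion-like and 7 of 10 Schwann-like sums, was lost without #4 or #7 and Sdha without any of #1, #2, #5, #6, #7, #9 or #10.

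The 3 genes of the c subunit took different shares in different cells. UMI counts are not scaled by transcript length, and whether the 3 transcripts were captured alike was not tested. Atp5g1 took a larger share in ganglion-like cells, 59.9% ± 3.2 of the UMIs of the 3 genes (55.7 to 65.6), against 44.5% ± 6.8 in neuroblast-like and 51.4% ± 7.6 in Schwann-like cells (n = 9). Atp5g2 went the other way, with 39.6% ± 6.0 in neuroblast-like cells (24.2 to 46.5), 19.0% ± 3.0 in ganglion-like cells (16.3 to 26.0) and 32.4% ± 6.1 in Schwann-like cells. Only #2, at 24.2%, lay within the ganglion-like range, and the other 9 mice lay above it. Endothelial-like cells held the highest share of Atp5g2, 58.3% ± 16.9, and the lowest of Atp5g1, 27.6% ± 12.8, over fewer UMIs (564 in the 10 mice). Atp5g3 took 15.8% ± 1.1 in neuroblast-like, 16.3% ± 4.4 in Schwann-like and 14.1% ± 10.2 in endothelial-like cells. In ganglion-like cells it was at 21.1% ± 3.1. The 6-week-old mouse had 38.5% Atp5g2 in neuroblast-like and 24.4% in ganglion-like cells, and the WT mouse 18.0% in ganglion-like cells, within the range of the 10 mice. Atp5g1 was at 53.45% in the ganglion-like cells of the 6-week-old mouse, below all 10 mice (lowest 55.69%), and Atp5g3 at 17.13% in its neuroblast-like cells, above all 10 (highest 17.07%).

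**Figure D4:**
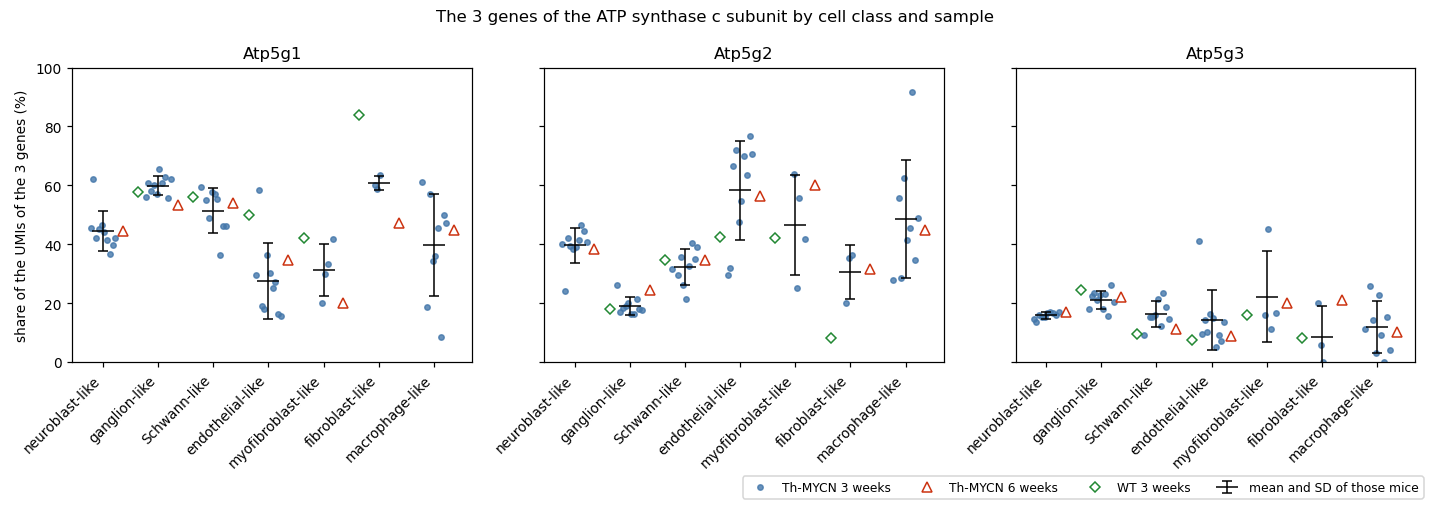
Share of Atp5g1, Atp5g2 and Atp5g3 in the UMIs of the 3 genes, in percent, by cell class. Each filled point is a 3-week-old Th-MYCN+/- mouse with at least 10 such UMIs, bars give mean and SD, diamonds the WT mouse and triangles the 6-week-old mouse; Atp5g2 is at 39.6% in neuroblast-like, 19.0% in ganglion-like and 58.3% in endothelial-like cells.

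The promoters of the 3 genes were compared because the genes were used differently. Each window runs from 250 bases before to 50 bases after the RefSeq start (GRCm38.p6) and is written 5′ to 3′ on the minus strand, with matches to the searched motifs in capitals. The windows are chr11:96075582-96075881 for Atp5g1, chr15:102670998-102671297 for Atp5g2 and chr2:73911277-73911576 for Atp5g3. The RefSeq start of Atp5g2 lies downstream of the 5′ end of the gene span given above, so that its whole window falls inside that span.
Atp5g1: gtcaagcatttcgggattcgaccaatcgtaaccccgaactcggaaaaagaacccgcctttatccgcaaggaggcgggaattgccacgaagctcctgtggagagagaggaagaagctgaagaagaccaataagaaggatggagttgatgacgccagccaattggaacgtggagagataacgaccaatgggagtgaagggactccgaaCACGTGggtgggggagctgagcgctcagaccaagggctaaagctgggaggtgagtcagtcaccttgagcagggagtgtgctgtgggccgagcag
Atp5g2: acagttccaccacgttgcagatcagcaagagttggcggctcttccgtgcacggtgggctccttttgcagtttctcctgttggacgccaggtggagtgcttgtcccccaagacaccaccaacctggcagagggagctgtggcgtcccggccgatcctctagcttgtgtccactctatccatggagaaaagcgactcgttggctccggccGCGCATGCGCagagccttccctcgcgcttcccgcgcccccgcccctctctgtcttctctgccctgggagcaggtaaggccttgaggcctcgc
Atp5g3: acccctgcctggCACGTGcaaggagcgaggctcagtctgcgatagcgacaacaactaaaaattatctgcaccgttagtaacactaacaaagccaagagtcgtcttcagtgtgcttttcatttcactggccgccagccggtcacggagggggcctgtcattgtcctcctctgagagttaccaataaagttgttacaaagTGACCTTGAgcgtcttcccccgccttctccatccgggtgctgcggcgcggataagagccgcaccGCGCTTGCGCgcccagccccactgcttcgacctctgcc
Counted from the first base shown, Atp5g1 held an E-box (CACGTG, the element that MYC family proteins bind) at position 207, Atp5g2 an NRF1 element at 209, and Atp5g3 an E-box at 13, an ERR element (TCAAGGTCA, here on the other strand) at 199 and an NRF1 element at 263. Promoters were found for 75 of the 93 members. The NRF1 element was in 19 of them (25.3%) and in 5.19% of all 27025 promoters of the table, and the YY1 element (AANATGGCG) was in 11 (14.7%) and in 2.76%. The ERR element was in 2 members (2.67%, against 0.47%), the ETS element (CCGGAAGT) in 5 (6.67%, against 4.31%) and the E-box in 5 (6.67%, against 8.09%). Both strands were searched. By complex, the NRF1 element was most frequent in complexes II (2 of 3) and V (6 of 14) and was found in 1 of 13 promoters of complex IV. A match is a stretch of letters and not a bound site.

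Myofibroblast-like cells were set apart by 2 isoforms. Ndufa4l2 (chr10:127514967-127517154, plus strand), the second form of Ndufa4, was at 2477, 3522 and 4973 CPM in the 9 mice (lowest, median and highest) and at 0, 20.5 and 197 CPM in endothelial-like cells. It made up 93.7% ± 4.6 of the UMIs of Ndufa4 and Ndufa4l2 in myofibroblast-like cells (83.3 to 100) against 10.5% ± 13.7 in endothelial-like and 1.08% ± 1.09 in neuroblast-like cells. Of its 656 UMIs in all cells, 510 were in myofibroblast-like cells. Cox4i2 (chr2:152754173-152765037, plus strand), the second form of Cox4i1, was at 581, 1460 and 6112 CPM and made up 42.6% ± 17.6 of both forms there (18.6 to 71.4), against 1.91% ± 2.24 in endothelial-like cells, and 233 of its 282 UMIs were in myofibroblast-like cells. Both genes are known to respond to low oxygen. The study lists both among its myofibroblast markers from these same libraries, so that their place here is not independent evidence, and they were kept out of the clustering and of the markers used for naming. The WT mouse had 96.4% Ndufa4l2 and 61.2% Cox4i2 in 29 myofibroblast-like cells, and the 6-week-old mouse 100% and 56.7% in 16 cells. The level of Ndufa4l2 in the WT mouse, 5396 CPM from 81 UMIs, was above all 9 mice. In free RNA Ndufa4l2 was at 3.43 to 68.2 CPM and Cox4i2 at 1.79 to 40.4 CPM over the 10 mice, far below myofibroblast-like cells.

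**Figure D5:**
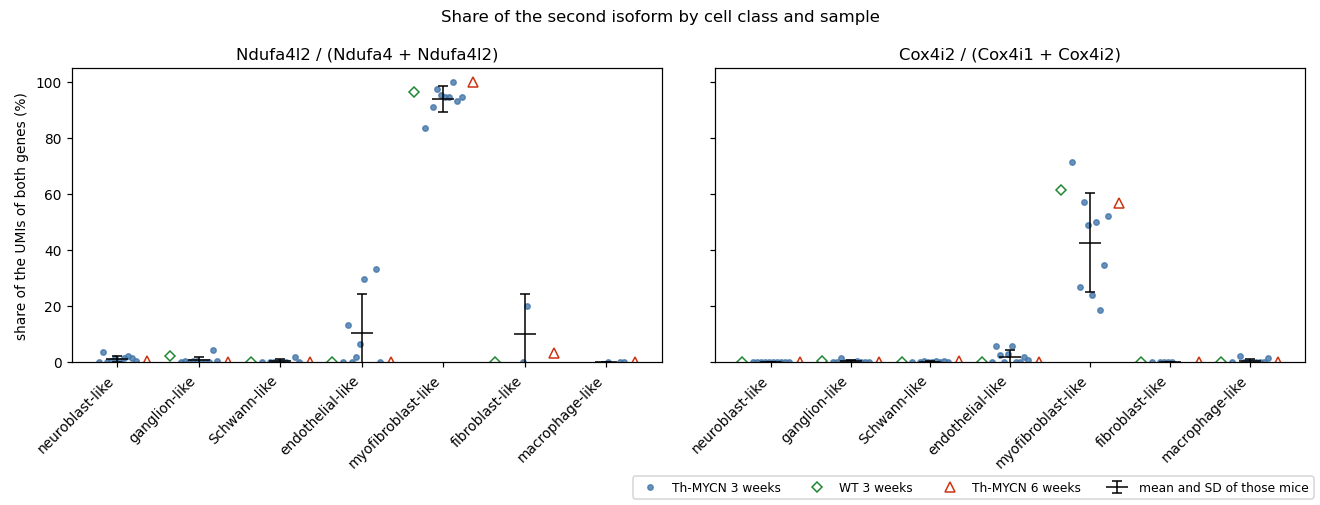
Share of Ndufa4l2 in the UMIs of Ndufa4 and Ndufa4l2 (left) and of Cox4i2 in the UMIs of Cox4i1 and Cox4i2 (right), in percent, by cell class. Symbols are as in the plot of the c subunit genes; myofibroblast-like cells are at 93.7% and 42.6% on average, and endothelial-like cells at 10.5% and 1.91%.

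The same comparison, myofibroblast-like against endothelial-like cells in 9 mice, could test only 11 members, since the sums were shallow and 267 genes passed the filter, which asked here for 534.5 CPM. Of these 9 were higher and 0 lower, against 33.0% and 35.6% of the genes tested. The count includes Ndufa4l2 and Cox4i2, and 6 of the 9 reached that level in under 5 of the 9 endothelial-like sums, so that they were tested through the class where they are high and the count supports nothing. Without the filter 89 members and 13431 genes were tested. Of the members 2 were higher and 5 lower, beside 306 and 1239 of all genes. The median log2 fold change was -0.29 for the members and -0.72 for all genes. Cox4i1 and Cox6a1 then turned to -0.26 and -0.39. With the filter, at an unadjusted edgeR p under 0.05 the count was 9 as well, and DESeq2 also called 9 higher and 0 lower. Without #5, 6 members were tested and 4 were higher. Without TMM 6 were higher, with all genes split 70 and 123 in place of 88 and 95. Ndufa4l2 and Cox4i2 reached the level of the filter in 9 of 9 myofibroblast-like and 0 of 9 endothelial-like sums, and had to differ to be tested. The log2 fold changes of the other members called were 1.63 ± 0.23 for Cox8a, 1.42 ± 0.21 for Atp5b and 1.23 ± 0.24 for Atp5a1, followed by Atp5l, Cox4i1, Cox6a1 and Atp5j. Cox8a was at 1427 ± 875 CPM in myofibroblast-like cells and was higher in 9 of 9 mice. Cox4i1 (0.83 ± 0.29) was lost without #8, whose 83 UMIs of Cox4i1 included 74 in a single cell, and Cox6a1 (0.70 ± 0.25) was lost without #9 or #10. Of the mitochondrially encoded subunits 3 of 5 tested were called, all higher.

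Other second isoforms, known mainly from heart, skeletal muscle or testis, were near absent. In all cells Cox6a2 had 7 UMIs, Cox7b2 5, Cox8b 3 and Cox8c 0, which allows no more than 3 UMIs of the last. Cox6b2 and Cox7a1 were seen at low shares that differed between classes. Cox6b2 made up 1.80% ± 0.75 of Cox6b1 and Cox6b2 in neuroblast-like cells (0.980 to 3.33) and 4.32% ± 2.67 in Schwann-like cells (n = 9, 1.61 to 10.0), but 0.0122% ± 0.0385 in ganglion-like cells, where 4 of 7539 UMIs were of Cox6b2. The 6-week-old mouse had 0.433% in neuroblast-like cells, from 8 UMIs of Cox6b2, below all 10 mice. The lowest neuroblast-like mouse was above the highest ganglion-like mouse (0.122%). Cox7a1 made up 3.42% ± 2.88 of Cox7a1 and Cox7a2 in Schwann-like cells and 0.369% ± 0.274 in neuroblast-like cells. The Schwann-like cells of the WT mouse were at 10.4%, above all 3-week-old Th-MYCN+/- mice (highest 7.55%). These shares rest on few UMIs, since the Schwann-like cells of all mice together held 55 of Cox7a1. Their counting error is not given, and the place of the WT mouse is a description.

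The conditions were compared by placing the single WT and the single 6-week-old mouse in the range of the 10 mice, with exact Poisson 95% intervals that cover counting error only. A single mouse gives no spread of its own, and no test between conditions was made. In ganglion-like cells the nuclear sum was 33340 CPM in the WT mouse (32660 to 34020) and 37800 in the 6-week-old mouse (37420 to 38190), both within the range of 24760 to 53860. In Schwann-like cells it was 25340 (24710 to 26000) and 26460 (26000 to 26910), again within. Neuroblast-like cells of the 6-week-old mouse were at 37820 (37570 to 38070), with complex V at 11810, complex IV at 8732 and complex I at 13150 CPM, all within. Myofibroblast-like cells were at 41840 CPM (WT) and 44140 CPM (6 weeks), also within. Other sums left the range. The core of complex I was at 2165 CPM in WT Schwann-like cells (1982 to 2362, highest mouse 2072). In 6-week-old myofibroblast-like cells it was at 3507 CPM (2567 to 4678, highest mouse 3362). Assembly factors were at 535 CPM in 6-week-old ganglion-like cells (490.5 to 583.2, highest mouse 521.8). In WT endothelial-like cells they were at 564.5 CPM (397.5 to 778.1, highest mouse 458.3). Each of these lay above all mice at 3 weeks, but each interval reaches into the range. Complex V was at 9260 CPM (7993 to 10670) in WT fibroblast-like cells, above all mice with such a sum (highest 7786). In the 28 endothelial-like cells of the 6-week-old mouse the core of complex I was at 690 CPM (454.5 to 1003, lowest mouse 906.8). Complex II was at 409 CPM there (233.6 to 663.7, lowest mouse 468.3). Both were below all 10 mice, with intervals that reach into the range. In the 5 NKT-like cells of the 6-week-old mouse the sum of all members was 29330 CPM (24310 to 35070, highest mouse 24340). That sum and those of complexes I to IV lay outside the range of the only 2 mice with such a sum, with intervals that reach into it.

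The 22 neuroblast-like cells of the WT mouse, without the human MYCN transcript, summed to 30250 CPM (26350 to 34560), within the range. Complex V was at 7422 CPM (5560 to 9708, lowest mouse 8987) and complex II at 560 CPM (153 to 1434, lowest mouse 956.9). Both were below all 10 mice, with intervals that reach into the range. The mitochondrially encoded subunits of these WT cells were at 30670 CPM and the ratio at 1.01, above all 10 mice. Whether these few cells are the same kind of cell was not tested. In 10 macrophage-like cells of the WT mouse the sum was 12240 CPM (10000 to 14830), below all 10 mice, as were complexes I, II, III and V. The intervals of complexes I, II and III reach into the range.

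Per gene, members of at least 50 CPM were placed in the range of the 10 mice beside other genes of that level. In WT ganglion-like cells 4 of 80 were above all 10 mice (Ndufa8, Sdhd, Ndufaf8 and Ndufb8) and 3 below (Ndufaf3, Uqcrfs1 and Atp5a1), against 10.0% and 5.58% of genes of that level. In WT Schwann-like cells 3 of 79 were above (Sdhc and Ndufv2 among them) and 2 below (Uqcrc2 and Cox7a2l), against 7.29% and 4.2%. In WT endothelial-like cells 8 of 80 were above and 5 below, against 9.8% and 5.47%. Atp5b was among those above at 1709 CPM, with 56 of its 112 UMIs in a single cell.

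In the 6-week-old mouse 4 of 82 members were above all 10 mice in neuroblast-like cells (Ndufa10, Cox5a, Atp5d and Atp5h) and 0 below, against 7.79% and 11.0%. Cox5a was at 597 CPM, beside a highest value of 557 CPM at 3 weeks, and Atp5d, the δ subunit of the central stalk, at 713 beside 674 CPM. In ganglion-like cells 3 of 80 were above (Ndufa8, Ndufaf3 and Atp5d) and 2 below (Atp5f1 and Uqcrfs1), against 5.12% and 4.13%. Ndufa8, an accessory subunit of complex I, was above the range of 325 to 531 CPM there in both single mice, at 842 CPM (WT) and 577 CPM (6 weeks). In Schwann-like cells 0 of 79 were above and 2 below (Uqcrc2 and Ndufv1), against 2.56% and 3.0%. Uqcrfs1 in ganglion-like cells was thus below the 3-week-old range of 332 to 583 CPM in both single mice, at 317 CPM in the WT and 302 CPM in the 6-week-old mouse.

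Genes around the complexes were described from lists. Of the regulators of mitochondrial genes, 4 of 7 tested were higher and 1 lower in neuroblast-like than in ganglion-like cells. Their shares were 57.1% and 14.3%, beside 33.2% and 33.1% of all genes. The higher ones were Gabpb1 (1.82 ± 0.25), a subunit of the factor GABP, Nrf1 (1.77 ± 0.29), Tfam (1.43 ± 0.27), which packs and transcribes mitochondrial DNA, and Yy1 (0.72 ± 0.22). Atpif1, the inhibitor of ATP synthase, was lower (-0.48 ± 0.14). Yy1 was lost without #5, and Nrf1 reached the level of the filter (12.3 CPM) in 2 of 10 ganglion-like sums. Against Schwann-like cells Gabpb1 (2.49 ± 0.38), Atpif1 (1.08 ± 0.16) and Chchd2 (0.41 ± 0.16) were higher among 6 tested, although Gabpb1 reached the level of the filter in 1 of 10 Schwann-like sums. Between ganglion-like and Schwann-like cells Atpif1 (1.59 ± 0.14) and Chchd2 (0.71 ± 0.15) were higher, the only 2 tested, beside 35.2% of all genes. The call of Chchd2 in neuroblast-like cells was lost without any of #1, #4, #5, #7 or #10. In myofibroblast-like against endothelial-like cells only Chchd2 was tested and was higher (0.49 ± 0.21), a call lost without any of #3, #4, #6, #7, #8, #9 or #10, and at -0.60 without the filter.

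Assembly factors outside the symbol rule gave 5 higher and 10 lower of 32 in neuroblast-like against ganglion-like cells (15.6% and 31.2%), beside 33.2% and 33.1% of all genes. Against Schwann-like cells they gave 5 and 9 of 25 (20% and 36%), beside 35.9% and 32.2%, and between ganglion-like and Schwann-like cells 5 and 1 of 12 (41.7% and 8.33%), beside 35.2% and 33.3%. Electron carriers and coenzyme Q enzymes gave, in the same order and beside the same shares of all genes, 4 and 1 of 13 (30.8% and 7.69%), 5 and 2 of 10 (50% and 20%), and 2 and 2 of 6 (33.3% and 33.3%).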

How the data were processed

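Cells of the dissociated superior mesenteric ganglion, 1 mouse per library, had been run on the 10x Chromium 3′ v1 chemistry. The authors deposited UMI counts per gene and barcode, made with Cell Ranger (software version 3.0.2 in the file headers) on mm10 with human MYCN added, with an annotation release that was not given in those sources. Whole droplet matrices were used. Barcodes were called with an EmptyDrops procedure (FDR 0.01, 10000 draws, free RNA from barcodes of at most 100 UMIs), and cells under 200 genes, over 10% mitochondrial or over 60% ribosomal UMIs were left out, as in the study. Cells were clustered in Seurat 5.3.0 with sctransform 0.4.2 (30 components, resolution 0.5) without members and mitochondrial genes, and clusters were named from markers by a rule taken over from earlier work. Scrublet called 53 of 12055 cells (0.440%), too few to have worked, so doublets were kept.

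UMIs were summed per mouse and class (at least 5 cells) and tested with edgeR 4.0.16 (quasi-likelihood, TMM, mouse as block, R 4.3.3), with DESeq2 1.42.0 as an alternative. Steps were tested on simulated data. Both sums of a comparison come from the same animal, which is why the mouse was a block; deviations of paired sums correlated by -0.0173 to 0.327 between neuroblast-like and ganglion-like cells, positive in 9 of 10 mice. Poisson and binomial intervals cover counting error only. Coding sequences came from GENCODE on GRCm38 and promoters from RefSeq.

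Named by rule were, per comparison, the 3 members that rose most and the 3 that fell most among those called with the same sign in every mouse, the isoform sets, 10 catalytic or defining subunits, the most abundant member per complex, the regulators tested and the 5 genes most like the nuclear sum. Members, lists and tests were chosen with earlier results of these data known. Some genes that count in the totals are not reported here by name.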

Additional observations from a re-analysis of the deposited data

Results flagged for a closer look

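Among 40 groups of mice, sums and ratios by class, 13 held a value farther from the others than Dixon's 95% limit allows, where chance gives about 1 in 20 groups. The part of depth or free RNA in them was not tested.

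Mouse #2 gave 9 of the 13. Its ganglion-like cells summed to 53860 CPM over all members, with the next mouse at 38460, and to 20470 CPM (next 14690) for complex I, 4800 CPM (next 3422) for complex III and 13760 CPM (next 10410) for complex V. Its neuroblast-like cells, 37 in number, had 14870 CPM of mitochondrially encoded subunits (next 7163) and a ratio to nuclear UMIs of 0.3207 (next 0.2139). Its 13 Schwann-like cells had 46070 CPM of mitochondrially encoded subunits (next 24320), a ratio of 1.348 (next 0.7995) and 330.3 CPM of complex II, the lowest value (next 607.9).

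In endothelial-like cells complex II was at 6842 CPM in #7, with the next mouse at 931.7. Of the 152 UMIs of Sdhd behind it, 145 were in a single cell (95.4%).

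In myofibroblast-like cells #1, with 5 cells, had 67540 CPM over all members (next 45480) and 28120 CPM for complex I (next 18070), and #5 had 6184 CPM for complex III (next 3973).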

How the results depend on the processing

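Between neuroblast-like and Schwann-like cells 29 members were higher, and 46 with DESeq2, 51 with library size without TMM and 54 without a filter on low counts. All genes moved too, from 2001 higher and 1797 lower of 5576 to 2352 and 1564, 2563 and 1451, and 4402 and 3383 of 18745. The 5 lower became 8 with members kept in the clustering and 10 with log-normalized clustering. There all genes gave 1896 and 1917 of 5624, and 2036 and 2010 of 5753. Between ganglion-like and Schwann-like cells the 37 higher became 59 without the filter. The 2 lower became 0 with cells of at least 1000 UMIs. They became 1 with library size without TMM, with stricter limits per cell (500 genes or more, mitochondrial UMIs up to 5%), or without the top 5% of Scrublet scores. All genes went from 1136 higher and 1073 lower of 3224 to 3916 and 3025 of 17939 without the filter. In the order of the other alternatives, they gave 1191 and 793 of 2876, 1398 and 913 of 3224, 1045 and 998 of 2941, and 1115 and 1051 of 3148. Without the replicate block the counts were 10 higher and 16 lower for neuroblast-like against ganglion-like cells, 22 and 5 against Schwann-like cells, 29 and 0 for ganglion-like against Schwann-like cells, and 7 and 0 for myofibroblast-like against endothelial-like cells. All genes gave 2440 and 2428 of 7186, 1944 and 1814 of 5576, 1065 and 1026 of 3224, and 82 and 89 of 267. In the last comparison, no filter gave 2 higher and 5 lower of 89 members, beside 306 and 1239 of 13431 genes. It turned Cox4i1 (-0.26), Cox6a1 (-0.39) and Chchd2 (-0.60). The causes were not tested.

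With single mice left out, the counts higher and lower ran from 9 to 17 and 13 to 25 (neuroblast-like against ganglion-like), 22 to 40 and 5 to 6 (against Schwann-like), 30 to 49 and 0 to 2 (ganglion-like against Schwann-like) and 4 to 10 and 0 to 0 (myofibroblast-like against endothelial-like). Sums ran from 32580 to 34970, 32850 to 36080 and 23100 to 25170 CPM in neuroblast-like, ganglion-like and Schwann-like cells, and ratios from 0.1625 to 0.1859, 0.3878 to 0.4229 and 0.6171 to 0.7196. Under the other alternatives named genes kept side and direction in 1099 cases, were lost in 46, gained in 68 and turned in 3.

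After the data were seen, each gene's UMIs in a cell were held to a limit, which gave 16 higher and 20 lower, 40 and 5, 38 and 2, and 9 and 0 in the order above. All genes gave 2628 and 2410 of 7215, 2210 and 1800 of 5519, 1197 and 1128 of 3202, and 93 and 99 of 268. Counting the cells of low depth without a name as neuroblast-like gave 17 and 15 against ganglion-like and 26 and 5 against Schwann-like cells. Among all genes it gave 2810 and 2432 of 7825, and 2063 and 1796 of 5717. Depth limits the sparse classes most.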

Other observations

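Mitochondrial ribosomal proteins, which make the mitochondrially encoded subunits, were higher in neuroblast-like than in ganglion-like cells in 24 and lower in 7 of 77 tested (31.2% and 9.09%, beside 33.2% and 33.1% of all genes), with a median log2 fold change of 0.25 beside 0.02 for all genes. Against Schwann-like cells 35 were higher and 12 lower of 77 (45.5% and 15.6%, beside 35.9% and 32.2%), and between ganglion-like and Schwann-like cells 17 and 9 of 65 (26.2% and 13.8%, beside 35.2% and 33.3%). Enzymes of the tricarboxylic acid cycle and pyruvate entry gave, beside the same shares of all genes, 8 higher and 6 lower of 18 in neuroblast-like against ganglion-like cells (44.4% and 33.3%), 10 and 3 of 18 against Schwann-like cells (55.6% and 16.7%), and 7 and 3 of 18 between ganglion-like and Schwann-like cells (38.9% and 16.7%). Idh2, the mitochondrial NADP-dependent isocitrate dehydrogenase, was higher in neuroblast-like than in ganglion-like cells (2.20 ± 0.23). Mpc1, a subunit of the pyruvate carrier, was lower in neuroblast-like cells in both comparisons (-1.25 and -1.52). Both genes were named after their values were seen.

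Over 53 sums of at least 20 cells, which share mice and depth, the 5 genes among 3384 whose log2 CPM followed the nuclear sum most closely were Atpif1 (Pearson's r 0.84), Micos10 (0.82), Hint1 (0.81), Tma7 (0.79) and Cycs (0.78).

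Within classes, the neuroblast-like cluster of 1359 cells led by cell-cycle genes summed to 32760 ± 5692 CPM and the larger one of 1436 cells to 35380 ± 7848 CPM (SD, n = 10). Among ganglion-like cells the cluster of 1363 cells, mostly of #2, was at 41230 ± 8299 CPM in 5 mice, and a shallow cluster of 1049 cells (median 556 UMIs) at 31140 ± 7211 CPM, with mitochondrially encoded subunits at 10850 and 20620 CPM.

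Many genes had UMIs piled up in single cells. Over all genes 14474 values in 5634 cells lay above 10 plus 10 times the count that a gene's share of its class gives. Among the members there were 274 such values in 263 cells, over 77 genes, and the highest was 187 UMIs of Ndufc1 in a neuroblast-like cell of #7.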
